A study of Mus musculus with 4 samples.

Results

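The cells described here were the mesenchymal cells of the adult mouse sciatic nerve that carried Comp, Fmod, Inmt, Gdf10 or C7 transcripts, called Comp Gdf10 cells. A barcode was taken when it had at least 200 genes, at most 10% mitochondrial transcripts, at least 3 transcripts of Col1a1, Col1a2 and Dcn together, and none of Sox10 (Schwann cells), Pecam1 (endothelial cells) or Ptprc (immune cells). It also needed at least 3 transcripts of the 5 rule genes Comp, Fmod, Inmt, Gdf10 and C7 together, and more of them than of the 4 genes Pi16, Dpp4, Cd55 and Pcsk6, which mark the other epineurial fibroblasts. Of the 4226 adult barcodes within the gene and mitochondrial limits, 2463 passed the mesenchymal gate and 317 were Comp Gdf10 cells. The series as a whole holds 13200 barcodes in 4 libraries.

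Peripheral nerves have an outer connective tissue sheath, the epineurium, which encloses fascicles bounded by the perineurium. Within each fascicle the endoneurium surrounds the axons and their Schwann cells. Epineurial fibroblasts lay down collagen, elastic fibres and proteoglycans, carry blood vessels and lymphatics, and secrete growth factors and complement proteins. After a nerve is cut, the distal segment undergoes Wallerian degeneration, immune cells enter, and its mesenchymal cells divide and make matrix. Among the rule genes, Comp encodes a matrix protein that binds collagen and is best known from cartilage and tendon, and Fmod encodes fibromodulin, a small proteoglycan that regulates collagen fibril assembly. Gdf10 encodes a secreted ligand of the TGF-beta family, also called BMP3B. C7 encodes a component of the terminal complement pathway and Inmt an enzyme that methylates indolamines.

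Both adult libraries came from wild-type CD1 mice, a strain that was shared by every library of the series. The 3 DPI library was made from the distal segment of nerves that had been resected 3 days before on 1 side, and the uninjured library from nerves of both sides of unoperated adult mice. Both were dissociated with collagenase and trypsin, cleared of myelin with beads and profiled by Drop-seq, which tags each transcript with a unique molecular identifier (UMI) and each cell with a barcode. Nerves of several animals may be pooled in a library, and with 1 library per condition the animals are not separate. Hence no test between conditions was possible, no p-value is given, and every interval below covers counting error only. A difference between the libraries cannot be told apart from a difference between the 2 dissociations.

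At 3 DPI, 131 of 1362 gated cells (9.62%, exact Clopper-Pearson 95% interval 8.10 to 11.3) were Comp Gdf10 cells. In the uninjured nerve they were 186 of 1101 (16.9%, 14.7 to 19.2). The share was therefore lower at 3 DPI by more than the counting error, and it was lower under each of the 8 other gates tried. The shares are of recovered cells that met the rule. Fewer Comp Gdf10 cells, more of the other gated cells and fewer rule transcripts per cell cannot be told apart. A cell of the injured library was also deeper, with a median of 3350 UMIs and 1501 genes, against 2184.5 UMIs and 1067.5 genes in the uninjured library. Summed over the cells, the depth was nearly equal, with 498851 UMIs at 3 DPI and 501521 in the uninjured nerve.

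The 2 adult libraries shared 0 cell barcodes. A doublet score (scrublet, top 5% of barcodes) marked 4 of the Comp Gdf10 cells at 3 DPI and 7 in the uninjured nerve, and these were kept. One cell in each library held most of the hemoglobin transcripts of its group (72.9% at 3 DPI and 83.9% uninjured). The neonatal libraries were nearly without such cells, with 12 of 1327 gated cells in replicate 1 and 3 of 2950 in replicate 2.

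Markers of the epineurium were present, but not all were particular to these cells. Dpt, a matrix protein of skin and adventitia, reached 962 CPM (UMIs of a gene per 1000000 UMIs of the population) at 3 DPI and 1749 CPM in the uninjured nerve. Pcolce2, which enhances procollagen processing, reached 178 and 913 CPM, and the surface protein gene Ly6c1 880 and 818 CPM. The study's 5 epineurial markers (Pcolce2, Dpp4, Dpt, Ly6c1 and Comp) summed to 2526 CPM at 3 DPI and 5256 CPM in the uninjured nerve. They summed to 2773 and 7049 CPM in the Pi16 Dpp4 cells described below. Endothelial-marker cells had 1238 and 2436 CPM and endoneurial-marker cells 268 and 291 CPM. The rule selected for Comp and against Dpp4. The mesenchymal receptor gene Pdgfra was found in 55.0% of the cells at 3 DPI and 44.1% in the uninjured nerve. The 5 endoneurial markers (Etv1, Wif1, Sox9, Osr2 and Meox1) summed to 84.2 CPM at 3 DPI and 37.9 CPM in the uninjured nerve, and no cell met both this rule and the endoneurial one. Of the chondrocyte and adipocyte markers, Acan, Cnmd, Matn3, Plin1 and Cidec were at 0 in both libraries. The cartilage collagen gene Col2a1 was found in 6.87% of the cells at 3 DPI (18.0 CPM) and 0.538% in the uninjured nerve (1.99 CPM). This did not exceed endothelial-marker cells, with 27.0 CPM in 8.21% of cells at 3 DPI and 5.05 CPM in the uninjured nerve. Endoneurial-marker cells had 456 and 89.9 CPM of Col2a1. The 6 tenocyte markers summed to 92.2 CPM at 3 DPI and 175 CPM in the uninjured nerve, with Mkx and Chad at 0 in the former and Kera at 0 in the latter.

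Markers of some other cell types differed between the 2 groups of Comp Gdf10 cells. The 7 immune markers summed to 162 CPM at 3 DPI and 16.0 CPM in the uninjured nerve, with Ptprc (by the gate) and Trbc2 at 0 in both. The 4 VSM/pericyte markers summed to 96.2 and 491 CPM, the 6 Schwann markers to 112 and 243 CPM, and the 3 perineurial markers to 32.1 and 144 CPM. Their part in the differences described below was not tested. For the immune and smooth muscle genes among those named, levels in endothelial-marker or immune-marker cells are given with them.

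The cells were chosen by their UMIs of the rule genes, so that the levels of these genes are a description. In the uninjured nerve Inmt stood at 2548 CPM, Comp at 1715 CPM, Gdf10 at 1119 CPM, Fmod at 622 CPM and C7 at 451 CPM. At 3 DPI Gdf10 was the highest, at 1225 CPM, followed by Inmt at 866 CPM, Comp at 459 CPM, Fmod at 202 CPM and C7 at 42.1 CPM. Thus 4 of the 5 rule genes were lower at 3 DPI and Gdf10 was at a similar level in both libraries. C7 was found in 10.7% of the cells at 3 DPI (95% interval 6.0 to 17.3) and 43.0% in the uninjured nerve (35.8 to 50.5), Comp in 28.2% and 51.1%, and Inmt in 43.5% and 71.0%. Gdf10 was found in 83.2% (75.7 to 89.2) and 69.9% (62.8 to 76.4).

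Since the cells at 3 DPI were deeper, each cell with at least 1000 UMIs was also thinned to 1000 UMIs, which left out 7 cells at 3 DPI and 25 in the uninjured nerve. C7 was then found in 3.23% of the cells at 3 DPI and 30.4% in the uninjured nerve, Comp in 23.4% and 42.9%, and Inmt in 33.9% and 59.6%. Gdf10 was found in 58.9% and 55.9%, with overlapping intervals. Only the counts were thinned. The cells were still chosen by these genes at full depth, where those at 3 DPI were deeper, so the shares remain a description.

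**Figure D1:**
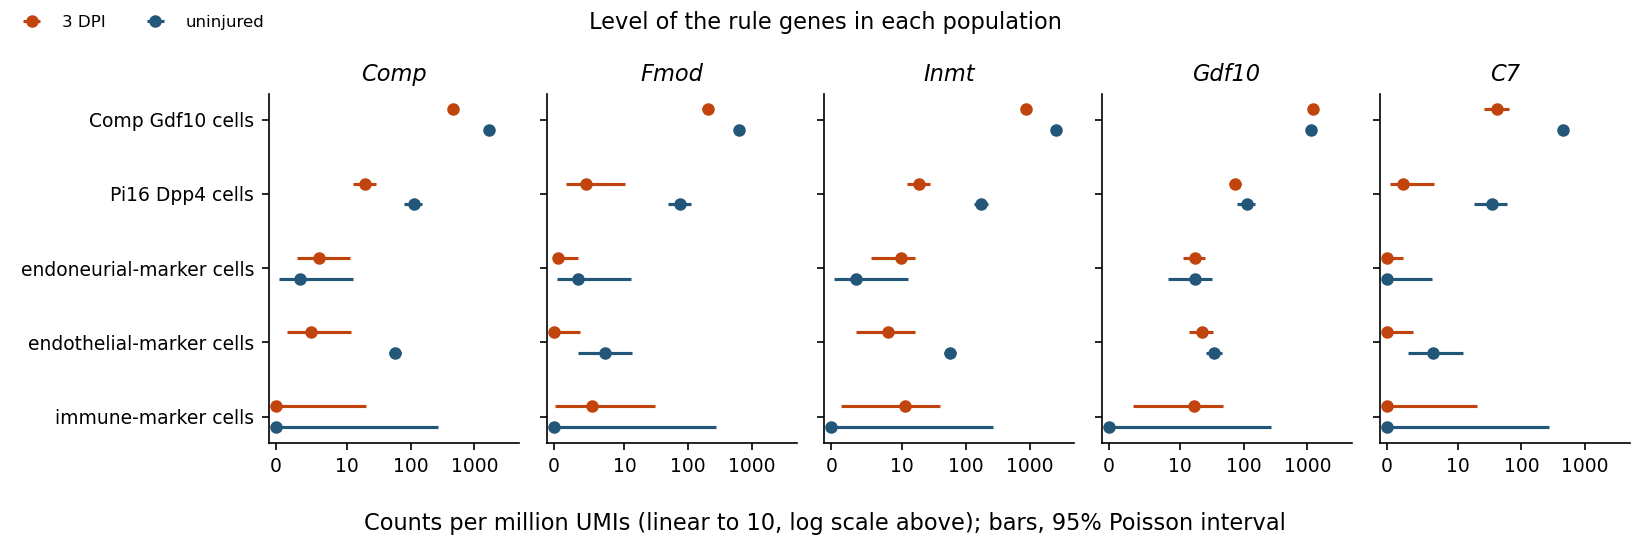
Level of the 5 rule genes in CPM (linear to 10, log scale above), in 5 populations of the 3 DPI and the uninjured library; bars are 95% Poisson intervals. Inmt, Comp, Fmod and C7 sat lower at 3 DPI than in the uninjured nerve in the Comp Gdf10 cells, whereas Gdf10 sat at 1225 and 1119 CPM.

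For comparison, the rule genes were read in endothelial-marker cells (207 at 3 DPI with a median of 2872 UMIs, 362 uninjured with 2397 UMIs). These cells were chosen with no limit on mesenchymal or VSM/pericyte genes, so that rule transcripts in them need not be free transcripts from other cells. Rule transcripts summed to 3 or more in 1 of these cells at 3 DPI and in 8 in the uninjured nerve. Comp was found there in 2.42% of cells at 3 DPI and 7.46% in the uninjured nerve, Inmt in 3.86% and 5.52%, and Gdf10 in 9.18% and 5.52%. Fmod was found there in 0% and 2.21% and C7 in 0% and 1.10%. The shares in Comp Gdf10 cells were higher by the rule, which needs these transcripts. Within the mesenchymal gate, the Comp Gdf10 cells held 82.7% of the Comp transcripts at 3 DPI and 92.7% in the uninjured nerve. For Gdf10 this was 70.1% and 85.5%, so that Gdf10 was the rule gene with the largest part outside the cells at 3 DPI.

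The 5 genes did not mark every cell together. At 3 DPI, 52 of the 131 cells (39.7%) had transcripts of only 1 rule gene, against 25 of 186 (13.4%) in the uninjured nerve. Only 3 cells at 3 DPI and 7 in the uninjured nerve had all 5. Gdf10 was the only rule gene in 45 cells at 3 DPI (34.4%) and in 7 uninjured cells (3.76%). The median sum of the rule genes was 6 UMIs at 3 DPI and 13 in the uninjured nerve, and it reached 20 or more in 15 and 55 cells.

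**Figure D2:**
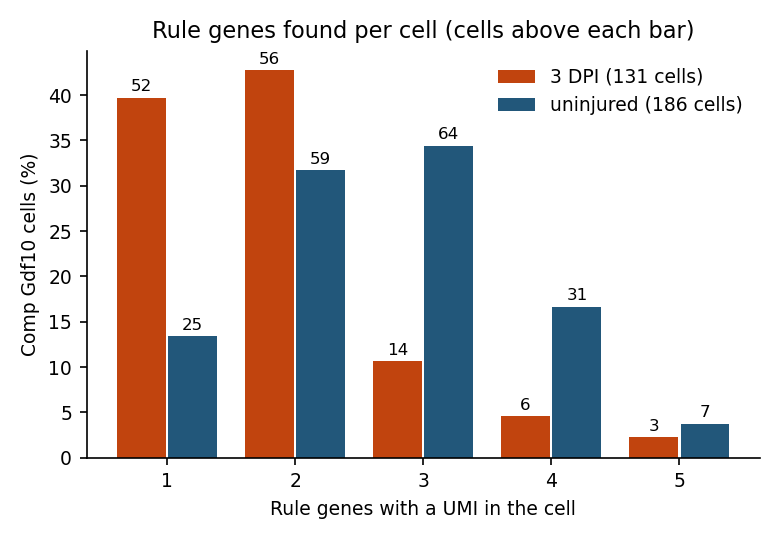
Share of the Comp Gdf10 cells (y axis, percent) by the number of rule genes with a UMI in the cell (x axis), for 131 cells at 3 DPI and 186 uninjured cells; the number above a bar is its cells. Cells with 1 rule gene made up 39.7% at 3 DPI and 13.4% in the uninjured nerve.

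Within the cells, choosing on a sum sets rule genes against each other, so co-detection was read over all gated cells, with no limit on the sum. In the uninjured nerve, C7 was found in 35.5% of the cells with Inmt and 3.16% of the cells without it, and Gdf10 was found in 56.3% of cells with Inmt and 9.48% of cells without. Comp was found in 49.5% of cells with Fmod and 8.0% of cells without. At 3 DPI, Comp was found in 41.3% of cells with Fmod and 3.88% of cells without, and Gdf10 in 55.6% of cells with Inmt and 17.8% of cells without. These pairs thus went together in both libraries. Cells with a rule gene were deeper than cells without it, with medians of 2132 against 1718 UMIs for Inmt in the uninjured nerve, and the part of depth in these shares was not tested.

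At the edge of the rule, 25 cells at 3 DPI had exactly 3 rule transcripts and 47 gated cells just outside had 2. Dpt was found in 68.0% of the former and 72.3% of the latter. In the uninjured nerve, 14 cells had 3 and 23 had 2 rule transcripts, and Dpt was found in 71.4% and 26.1% of them. Ties between the rule genes and the Pi16 group kept out 3 cells at 3 DPI and 5 in the uninjured nerve, and 15 and 17 further cells had 3 or more rule transcripts but more of the Pi16 group.

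The cells with Gdf10 alone were set beside the 79 cells at 3 DPI that had at least 2 rule genes. Of 2776 genes with at least 30 UMIs over both sets, 5.26% were 2-fold or more higher in the cells with Gdf10 alone and 4.76% were 2-fold or more lower. Fbln7, a fibulin of the matrix, stood at 68.2 CPM in the cells with Gdf10 alone and 427 CPM in the others, and Clec11a, a secreted growth factor of bone marrow stroma, at 341 and 750 CPM. The general epineurial markers were similar, with Dpt at 1154 and 875 CPM and Ly6c1 at 850 and 895 CPM. Of the 10 genes chosen by their ratio over the Pi16 Dpp4 cells, 6 were at least 2-fold lower in the cells with Gdf10 alone, and all 10 were above their level in the Pi16 Dpp4 cells. The cells with Gdf10 alone were part of the set by which the 10 were chosen, so this is a description. The median depth was 3721 UMIs with Gdf10 alone and 2995 UMIs with at least 2 rule genes.

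The cells were first set beside the Pi16 Dpp4 cells, the epineurial fibroblasts taken by the same gate when the 4 genes of their own group summed to 3 or more and exceeded the rule genes (291 cells at 3 DPI, 147 uninjured). Since the rule chose both populations, the comparison is a description. Of 4373 genes with at least 30 UMIs over both populations in each library, 84 were 2-fold or more higher in Comp Gdf10 cells in both libraries (1.92%), and 133 were 2-fold or more lower in both (3.04%). Most genes were thus within 2-fold between the populations in at least one of the libraries.

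Among the genes higher in the Comp Gdf10 cells, C2, a complement protease of the classical pathway, was 7.41-fold higher at 3 DPI and 5.58-fold in the uninjured nerve. Clec11a stood at 583 against 52.3 CPM at 3 DPI and at 847 against 94.7 CPM in the uninjured nerve. It was found in 64.1% and 60.8% of Comp Gdf10 cells and in 9.62% and 10.2% of Pi16 Dpp4 cells.

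Edn3, which encodes the peptide endothelin 3, was found in 13.7% of the Comp Gdf10 cells at 3 DPI and 15.6% in the uninjured nerve, and it was 10.4-fold (4.70 to 26.2) and 41.0-fold (7.08 to 1646) higher than in Pi16 Dpp4 cells. The width of the last interval reflects a single UMI in the uninjured Pi16 Dpp4 cells. A second endothelin gene went the other way. Edn1, for endothelin 1, stood at 2.0 against 81.5 CPM at 3 DPI and 21.9 against 198 CPM in the uninjured nerve. Matrix genes higher in the Comp Gdf10 cells were Spon1 (spondin 1, 7.74-fold and 12.2-fold), Fbln7 (5.33-fold and 5.77-fold) and the integrin-like Itgbl1 (5.77-fold and 5.16-fold). Ccdc3, Fmo2 (a flavin monooxygenase) and the chemokine Cxcl16 were named too.

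Genes lower in the Comp Gdf10 cells were near their detection limit there. Pla1a, a phospholipase, stood at 6.01 against 126 CPM at 3 DPI and 12 against 436 CPM in the uninjured nerve. Calcrl, the receptor of CGRP and adrenomedullin, stood at 8.02 against 78.5 CPM and 7.98 against 100 CPM. Aldh1a3, an enzyme of retinoic acid synthesis, stood at 14 against 119 CPM and 5.98 against 103 CPM. The transcription factor Osr2, which was also a marker of endoneurial cells, stood at 14 against 111 CPM and 5.98 against 146 CPM. Krtdap, Islr2, Efhd1, Arl4d and the transporter Abca6 were the others named, each at 21.9 CPM or less in the Comp Gdf10 cells.

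**Figure D3:**
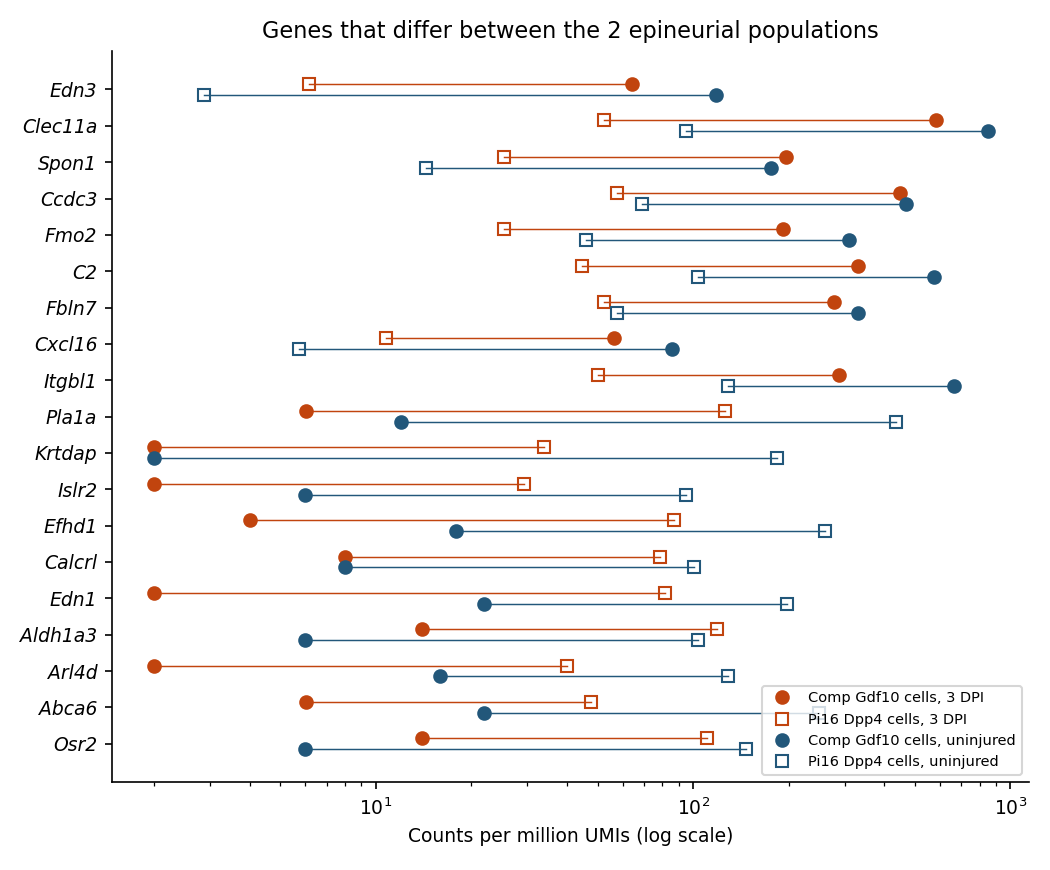
Level in CPM (log scale) of genes named between Comp Gdf10 cells (filled circles) and Pi16 Dpp4 cells (open squares), at 3 DPI and uninjured. The upper genes, down to Itgbl1, were higher in Comp Gdf10 cells in both libraries, for example Clec11a at 583 against 52.3 CPM and 847 against 94.7 CPM, and those from Pla1a down were lower in both.

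The endoneurial-marker cells (207 at 3 DPI, 178 uninjured) were more distant. Of 5011 genes compared, 259 (5.17%) were 2-fold or more higher in Comp Gdf10 cells in both libraries and 255 (5.09%) 2-fold or more lower. Higher genes included the Wnt modulators Sfrp4 (6357 against 197 CPM at 3 DPI, 5260 against 29.4 CPM uninjured) and Sfrp2 (696 against 25.7 CPM, 1472 against 15.6 CPM). They also included the elastic fibre genes Mfap4 and Eln, the adhesion gene Svep1, and Gas6, a ligand of the TAM receptors (1066 against 42.8 CPM, 1631 against 53.6 CPM). Ism1, a secreted protein, stood at 164 and 150 CPM and had a single UMI in the endoneurial-marker cells of each library.

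Lower genes included the cell cycle inhibitors Cdkn2a (4.01 against 344 CPM at 3 DPI, 0 UMIs against 275 CPM uninjured) and Cdkn2b (8.02 against 352 CPM, 14 against 306 CPM). Trf, for transferrin, stood at 68.2 against 2463 CPM and 14 against 866 CPM, and Enpp2, for autotaxin, at 8.02 against 228 CPM and 49.8 against 1339 CPM. The endoneurial-marker cells had median depths of 7217 and 3139 UMIs, above those of the Comp Gdf10 cells.

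The Comp Gdf10 cells were split by which genes summed to more, into a Comp and Fmod side and an Inmt, Gdf10 and C7 side. The Comp and Fmod side held 18 of 131 cells (13.7%) at 3 DPI and 67 of 186 (36.0%) in the uninjured nerve. The other side held 111 and 116 cells, and 2 and 3 cells were tied. Median depths at 3 DPI were 3637.5 UMIs on the Comp and Fmod side and 3373 UMIs on the other. In the uninjured nerve they were 3274 and 2062 UMIs. Of 3313 genes with at least 20 UMIs over both sides in each library, 1.36% were 2-fold or more higher on the Comp and Fmod side in both libraries and 3.2% were 2-fold or more lower.

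Of the genes named as higher on the Comp and Fmod side, Col12a1, Col8a1 and Fbln7 encode matrix proteins. Col12a1, a collagen that sits on fibril surfaces in tendon and fascia, stood at 1083 against 175 CPM at 3 DPI (6.18-fold, 4.36 to 8.74) and 195 against 39.7 CPM in the uninjured nerve (4.90-fold, 2.48 to 10.6). Col8a1, a short-chain collagen, was 3.59-fold and 3.04-fold higher. Igfbp6, which binds IGF-II, stood at 7228 against 2384 CPM and 13865 against 3387 CPM. Piezo2, a mechanically gated ion channel, was 4.76-fold (2.73 to 8.18) and 4.49-fold (1.75 to 13.6) higher. Fbln7, Fibin, Fxyd6 and Tgfb2 were the others named, and for Tgfb2 the interval at 3 DPI included 1 (0.93 to 8.01).

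The genes named as higher on the Inmt, Gdf10 and C7 side included the chemokines Cxcl12 and Cxcl14. Cxcl12, which retains leukocytes and progenitors, stood at 996 against 84.6 CPM at 3 DPI and 701 against 97.4 CPM in the uninjured nerve. Cxcl14 stood at 1625 against 355 CPM and 1665 against 264 CPM. Cd248, or endosialin, stood at 277 against 33.9 CPM and 303 against 18.5 CPM, and Thy1 at 277 against 33.9 CPM and 90.3 against 18.5 CPM. Ntrk2, the BDNF receptor gene, stood at 226 against 50.8 CPM and 300 against 46.4 CPM. Lrrc17, Tmeff2 and Lsm6 were also named, and for Lsm6 the interval at 3 DPI included 1.

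**Figure D4:**
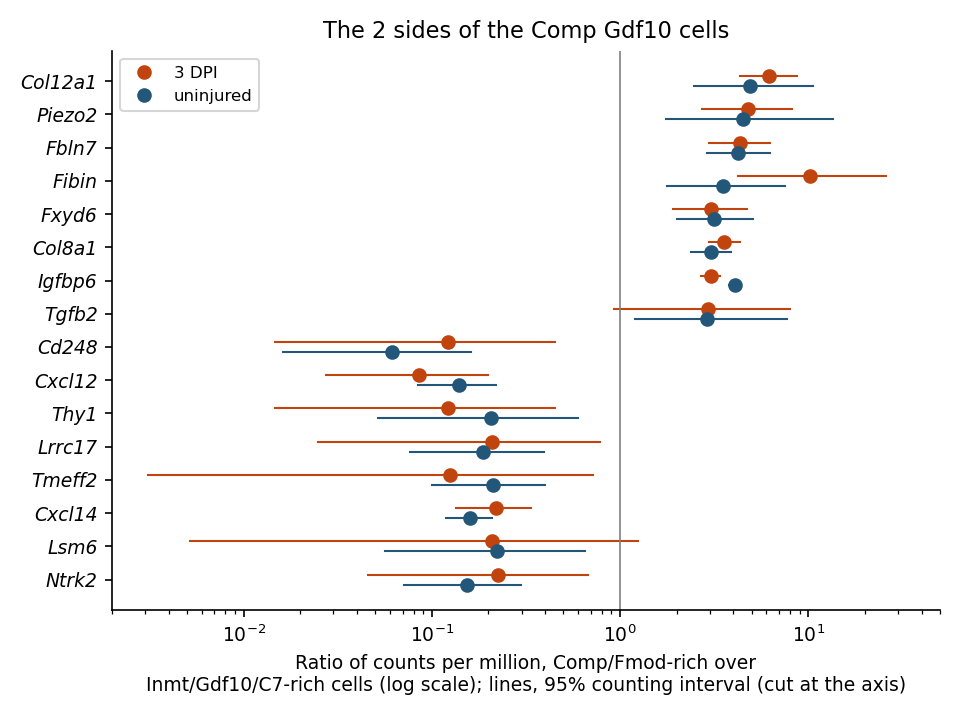
Ratio of CPM, cells with more Comp and Fmod over cells with more Inmt, Gdf10 and C7 (log scale), for the 16 genes named, in the 3 DPI and the uninjured library; lines are 95% counting intervals. Col12a1 (6.18 and 4.90) to Tgfb2 lay above 1 and Cd248 to Ntrk2 below 1 in both libraries, with the intervals of Tgfb2 and Lsm6 at 3 DPI reaching 1.

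The Comp Gdf10 cells of the injured nerve were then set beside those of the uninjured nerve. Of 4967 genes with at least 30 UMIs over both libraries, 468 were 2-fold or more higher at 3 DPI (9.42%) and 185 were 2-fold or more lower (3.72%). The median gene was 1.11-fold higher (0.15 on the log2 scale). With the median gene set to a ratio of 1, the counts were 316 and 301, so that the split of higher against lower genes depended on the scaling. The higher count was 272 of 3837 genes (7.09%) in the cells with at least 2 rule genes and 203 of 3254 genes (6.24%) when the rule was applied to thinned cells. Whether the cells with Gdf10 alone, 34.4% of those at 3 DPI, are of the same type as the others was not tested. Among Pi16 Dpp4 cells 14.3% of 7519 genes were higher and 5.79% lower, and among endoneurial-marker cells 21.5% and 7.0% of 8138 genes. These populations differ in cells and depth, and the shares were not compared by a test.

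Of the 12 genes with the largest ratios, Cthrc1, Tnc, Fbn2 and Prg4 encode matrix proteins. Cthrc1, which is made by matrix-producing fibroblasts after injury, stood at 704 CPM at 3 DPI and 33.9 CPM in the uninjured nerve (20.8-fold, 12.8 to 36.0). It was found in 47.3% of the cells at 3 DPI and 3.23% of the uninjured cells. Endothelial-marker cells had 168 and 34.6 CPM of it. Tnc, for the adhesion-modulating protein tenascin C, stood at 467 and 17.9 CPM (26.0-fold, 13.5 to 57.6). A single cell held 67.8% of its transcripts at 3 DPI, and without the highest cell of each library the ratio was 19.4. In the cells with at least 2 rule genes the ratio of Tnc was 6.19, and it was 6.10 when the rule was applied to cells thinned to 1000 UMIs. Endothelial-marker cells had 98.1 and 3.61 CPM of Tnc, in 22.2% of cells at 3 DPI against 19.8% of Comp Gdf10 cells. Immune-marker cells had 343 CPM of Tnc at 3 DPI. Fbn2, a fibrillin of developing tissue, stood at 84.2 and 12 CPM (7.04-fold, 2.98 to 20.3). Prg4, for the lubricant lubricin, stood at 307 and 25.9 CPM (11.8-fold, 6.72 to 22.7).

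The chemokine gene Ccl8, which attracts monocytes, stood at 283 CPM at 3 DPI and 17.9 CPM in the uninjured nerve (15.8-fold, 8.06 to 35.2). Endothelial-marker cells held 6.0 and 0.722 CPM of it, and immune-marker cells 27.3 CPM at 3 DPI. The imprinted noncoding RNA H19 stood at 2077 and 209 CPM (9.92-fold, 8.11 to 12.2), with 43.3% of its transcripts at 3 DPI in 1 cell. Emb, a surface glycoprotein gene, stood at 116 and 16.0 CPM, against 338 CPM in immune-marker cells at 3 DPI. Cfhr2 stood at 72.2 and 9.97 CPM, but it belongs to a family of near-identical genes, and how their transcripts were shared is uncertain. Armcx2 was 6.43-fold higher.

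Other genes among the 12 with the largest ratios did not exceed their level in endothelial-marker cells at 3 DPI. Lyz2, for the lysozyme of macrophages, stood at 126 CPM at 3 DPI and 3.99 CPM in the uninjured nerve. Endothelial-marker cells at 3 DPI had 131 CPM of it, in 30.4% of cells against 33.6% of Comp Gdf10 cells, and immune-marker cells had 6809 CPM. Spp1, for osteopontin, stood at 347 and 29.9 CPM, against 455 CPM in endothelial-marker and 1445 CPM in immune-marker cells at 3 DPI. In Pi16 Dpp4 cells Spp1 was 136-fold and in endoneurial-marker cells 47.9-fold higher at 3 DPI. Cenpq stood at 140 CPM at 3 DPI, against 214 CPM in endothelial-marker cells. Whether the transcripts of Lyz2, Spp1 and Cenpq came from the Comp Gdf10 cells cannot be read from these levels and was not tested.

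Among the genes named as lower at 3 DPI by their ratio, Pcolce2 was the most abundant in the uninjured nerve, with 178 CPM at 3 DPI and 913 CPM in the uninjured nerve (ratio 0.20, 0.15 to 0.25). It was found in 31.3% and 59.1% of the cells. Wisp2, a matricellular CCN protein gene, stood at 26.1 and 205 CPM (0.13, 0.07 to 0.23). Hpgd, which inactivates prostaglandins, stood at 24.1 and 122 CPM (0.20, 0.10 to 0.37), and Ramp1, a partner of the Calcrl receptor, at 6.01 and 61.8 CPM. The calcium sensor gene Stim1, the fatty acid elongation gene Ptplb and the claudin gene Cldn22 had ratios of 0.19, 0.18 and 0.16.

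The stress genes Atf3 (28.1 and 279 CPM), Hspa1a (58.1 and 329 CPM) and Hspb1 (28.1 and 164 CPM) were lower too. Endothelial-marker cells showed the same, at 150 and 1189, 161 and 1618, and 501 and 2216 CPM. Acta2, for smooth muscle actin, stood at 40.1 and 405 CPM, with 34.0% of the uninjured transcripts in 1 cell, and at 707 and 868 CPM in endothelial-marker cells. The 4 VSM/pericyte markers, among them Acta2, summed to 2690 and 1949 CPM in endothelial-marker cells. Those cells are thus no background reference for Acta2, and the source of its transcripts in the Comp Gdf10 cells was not tested.

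**Figure D5:**
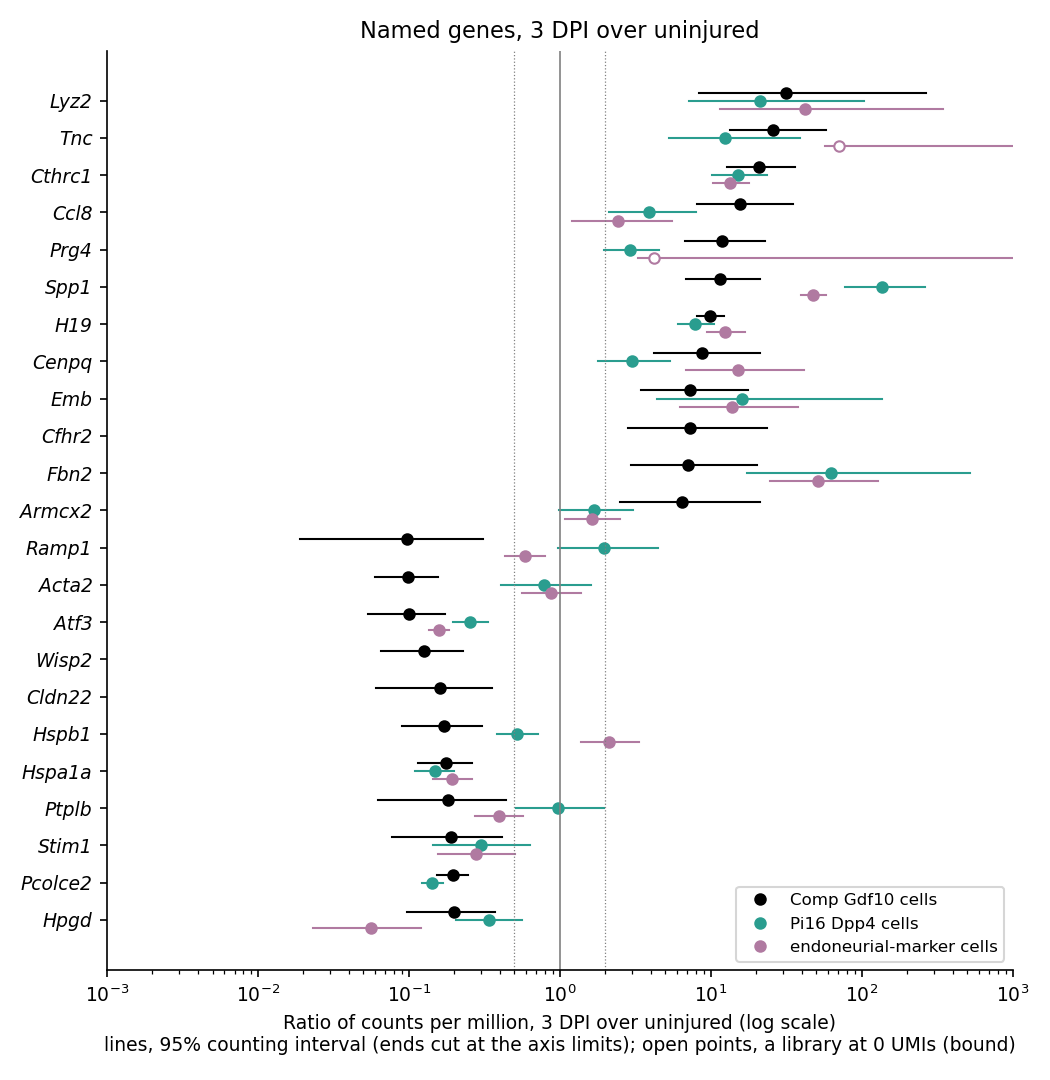
Ratio of CPM, 3 DPI over uninjured (log scale), for genes named by their ratio, in Comp Gdf10 cells (black), Pi16 Dpp4 cells (green) and endoneurial-marker cells (purple), where a population had at least 30 UMIs; lines are 95% counting intervals, open points are bounds against a library at 0 UMIs, and dotted lines mark 2-fold. Cthrc1 and H19 were higher at 3 DPI in all 3 populations, whereas Acta2 was lower in the Comp Gdf10 cells (0.10) and near 1 in the others (0.78 and 0.87).

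The gene lists that follow were chosen with earlier results of these data known, and each is described by its counts against the 9.42% higher and 3.72% lower of all genes. Of 15 structural collagens, 1 was higher and 0 were lower (median log2 ratio 0.51). The higher one was Col12a1 (293 and 106 CPM, 2.77-fold, 2.01 to 3.87). The abundant fibrillar collagen Col3a1 stood at 23997 and 28892 CPM, and the gate genes Col1a1 and Col1a2 at 17502 and 12614 CPM and at 29584 and 28631 CPM. Among 8 small leucine-rich proteoglycans 0 were higher and 3 lower (median -0.55), a share of lower genes above that of all genes. Ogn stood at 2560 and 6722 CPM (0.38, 0.36 to 0.41), Ecm2 at 204 and 965 CPM, and Omd at 60.1 and 279 CPM. Bgn, for biglycan, stood at 3245 and 1878 CPM (1.73-fold, 1.59 to 1.87). All 3 were also at least 2-fold lower in each rescaling and within the Inmt, Gdf10 and C7 side. Dcn, another of this family and a gate gene, stood at 19184 and 38732 CPM.

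Of 16 elastic fibre genes, 4 were higher and 0 lower. Beside Fbn2 these were Emilin1 (2.13-fold), Efemp1 (2.04-fold) and Fbn1 (1251 and 620 CPM, 2.02-fold, 1.76 to 2.32), and these 3 were under 2-fold with the median gene set to 1. Ltbp4 stood at 714 and 1252 CPM and Fbln1 at 674 and 1172 CPM. Of 22 matricellular and adhesive genes, 5 were higher (Tnc, Cthrc1, Spp1, Postn and Fn1) and 3 lower. Spp1 is counted here although it stood below its level in endothelial-marker cells at 3 DPI. Postn, for periostin, stood at 1732 and 417 CPM (4.16-fold, 3.57 to 4.86), and fibronectin gene Fn1 at 2696 and 1288 CPM (2.09-fold). Fn1 was under 2-fold with the median gene set to 1. Abi3bp stood at 295 and 782 CPM (0.38). Thbs4 stood at 58.1 and 126 CPM (0.46), but on the Inmt, Gdf10 and C7 side its ratio was 1.17. Sparc, at 18934 and 25371 CPM, was within 2-fold.

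Of 20 collagen processing genes, 4 were higher (P4ha3 at 4.36-fold, Lepre1 at 2.47-fold, Plod1 at 2.21-fold and Plod3) and Pcolce2 was lower, and Plod1 and Plod3 were under 2-fold with the median gene set to 1. The crosslinking enzyme gene Lox stood at 1395 and 823 CPM (1.69-fold, 1.5 to 1.92). Of 18 matrix proteases and inhibitors, 6 were higher and 1 was lower. Timp1, an inhibitor of metalloproteinases, stood at 561 and 126 CPM (4.47-fold, 3.39 to 5.97), and at 167 and 4.33 CPM in endothelial-marker cells. Mmp3, for stromelysin, stood at 874 and 181 CPM (4.82-fold, 3.83 to 6.11). Serpinf1, for the antiangiogenic protein PEDF, was the lower one, at 1572 and 4002 CPM (0.39, 0.36 to 0.43). Mmp2 stood at 1365 and 1204 CPM, within 2-fold.

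In complement, 1 of 10 genes was higher and 1 lower. Cfb, for factor B of the alternative pathway, stood at 349 and 106 CPM (3.30-fold, 2.41 to 4.58). C3 stood at 1818 and 985 CPM (1.85-fold, 1.65 to 2.06) and its inhibitor gene Serping1 at 3209 and 5091 CPM. Clu, the lower one, stood at 88.2 and 189 CPM in Comp Gdf10 cells and at 367 and 982 CPM in endothelial-marker cells. Of 9 chemokines 2 were higher, namely Ccl8 and Cxcl12 (878 and 431 CPM, 2.04-fold). Cxcl12 was 1.42-fold higher on the Inmt, Gdf10 and C7 side alone, and it stood at 865 and 2088 CPM in endothelial-marker cells. Of 14 cytokines and receptors, the interleukin 1 receptor gene Il1r1 was higher (126 and 37.9 CPM, 3.33-fold, 1.97 to 5.90) and Ifngr1 lower (78.2 and 175 CPM). The alarmin gene Il33 stood at 325 and 165 CPM (1.96-fold, 1.5 to 2.59). Of 12 interferon and antigen presentation genes, 1 was higher and 0 were lower (median 0.07).

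Growth factor genes past 2-fold lay in both directions, as did those of all genes. In the TGF-beta and BMP list, 1 of 19 was higher and 2 were lower. Fstl1 stood at 4562 and 2189 CPM (2.08-fold, 1.94 to 2.24), and it was under 2-fold with the median gene set to 1. Bmp4 stood at 52.1 and 199 CPM (0.26, 0.16 to 0.41), and the activin inhibitor gene Fst at 170 and 489 CPM (0.35, 0.27 to 0.45). Of 8 IGF genes, Igfbp4 was higher (2989 and 1458 CPM, 2.05-fold) and Igfbp6 lower (2951 and 8099 CPM, 0.36). On the Inmt, Gdf10 and C7 side alone these ratios were 1.57 and 0.70, so that neither was past 2-fold there. Of 8 Wnt genes 0 were higher and 2 lower. Sfrp2 stood at 696 and 1472 CPM (0.47, 0.41 to 0.54), and Sfrp5 at 182 and 538 CPM with 74.7% of the 3 DPI transcripts in 1 cell. On the Inmt, Gdf10 and C7 side the ratio of Sfrp5 was 1.13 (0.75 to 1.72). Sfrp4 stood at 6357 and 5260 CPM. Both Sfrp calls were under 2-fold with cells weighted equally.

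Of 13 FGF, PDGF, VEGF and HGF genes, 2 were higher and 1 was lower. Vegfa stood at 124 and 37.9 CPM (3.28-fold, 1.94 to 5.81), against 14 and 32.5 CPM in endothelial-marker cells. Angptl4 stood at 202 and 99.7 CPM and was under 2-fold with the median gene set to 1, and Angpt1 stood at 48.1 and 114 CPM (0.42, 0.25 to 0.69). Of 7 neurotrophic and guidance ligands, pleiotrophin gene Ptn was higher (168 and 29.9 CPM, 5.63-fold, 3.23 to 10.5). In endothelial-marker cells it stood at 61.0 and 1116 CPM. Of the 143 ligands that the study listed partly from these libraries, 98 were found in at least 2% of Comp Gdf10 cells at 3 DPI, 76 in the uninjured nerve and 72 in both. Among 48 of them with enough transcripts, 4 were higher and 6 lower (median -0.05). The cells at 3 DPI were deeper, and the part of depth in the counts at 2% was not tested. The share of all genes found in at least 2% of cells is not given, so the counts are not read as ligands gained or lost.

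Of 20 immediate early and heat shock genes, 0 were higher, 7 were lower and 13 were within 2-fold (median -0.80). Fos stood at 948 and 2405 CPM (0.39, 0.35 to 0.44) and Jun at 1082 and 2110 CPM (0.51). In endothelial-marker cells Fos stood at 1618 and 5204 CPM and Jun at 1861 and 4899 CPM, so the same direction was present in those cells too. Of 19 retinoid, steroid and xenobiotic enzymes, 2 were higher and 7 lower. Among the latter were Gstm1 (255 and 648 CPM, 0.39, 0.32 to 0.48), the metallothionein genes Mt1 and Mt2 (531 and 1220 CPM, 407 and 885 CPM) and the retinol carrier gene Rbp4 (136 and 373 CPM). Mt1 was lower in endothelial-marker cells too, at 293 and 1266 CPM. Aldh1a2, an enzyme of retinoic acid synthesis, was among the higher ones (56.1 and 7.98 CPM). With cells weighted equally, Mt1 and Mt2 were within 2-fold.

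Of 12 lipid genes, the cholesterol exporter gene Abca1 was higher (160 and 43.9 CPM, 3.66-fold, 2.26 to 6.16). Angptl7 (96.2 and 407 CPM) and Apoe (1052 and 2333 CPM) were lower. Of 10 glycolysis and hypoxia genes 0 were higher and 2 lower, and these were Slc2a1 and Ndrg1, with 22.1 and 81.8 CPM and 84.2 and 239 CPM. Slc2a1 was also 1 of the perineurial markers. Of 23 contractile and actin genes, 2 were higher and 4 lower. Tagln stood at 16.0 and 361 CPM and Tpm2 at 74.2 and 209 CPM, with 34.3% and 30.5% of the uninjured transcripts in 1 cell. Endothelial-marker cells had 735 and 1093 CPM of Tagln and 311 and 218 CPM of Tpm2. Since they also carried VSM/pericyte markers, they are no background reference for these genes. S100a4 stood at 277 and 43.9 CPM (6.31-fold, 4.0 to 10.4), against 109 CPM in endothelial-marker and 1428 CPM in immune-marker cells at 3 DPI. Actn1, for an actin crosslinker, stood at 198 and 67.8 CPM (2.93-fold, 1.96 to 4.46).

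The proliferation markers Mki67 and Top2a together had at least 3 UMIs in 4 cells at 3 DPI and 1 in the uninjured nerve, and a UMI in 7.63% and 1.08% of the cells. Only 4 of the 20 division genes had enough transcripts to be compared, and Top2a (50.1 and 14 CPM) and Tubb5 (385 and 161 CPM) were higher. In the list of imprinted and bridge cell genes, which holds Tnc, Cthrc1 and H19, 7 of 9 were higher (median 2.06) and 0 were lower, beside 9.42% of all genes. Mest stood at 449 and 199 CPM (2.25-fold, 1.77 to 2.88), and Peg3 was 2.06-fold higher and under 2-fold with the median gene set to 1.

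Lists of identity genes are given beside the 13.1% of all compared genes that were past 2-fold in either direction. Of 33 mesenchymal transcription factors, 2 were higher and 1 lower (median 0.01). Prrx2 stood at 58.1 and 14 CPM (4.17-fold, 1.79 to 11.3), whereas its relative Prrx1 stood at 936 and 722 CPM. Foxp2, the lower one, stood at 24.1 and 49.8 CPM with an interval that reached 1 (0.22 to 1.0). Of 18 other adventitial fibroblast genes 2 were higher and 2 lower, with Thy1 at 247 and 61.8 CPM (3.99-fold, 2.67 to 6.12) and Cd9 at 437 and 931 CPM (0.47). Thy1 stood at 146 and 18.0 CPM in endothelial-marker cells. Ly6a, for the Sca-1 antigen, stood at 1902 and 1852 CPM. Of 16 channel and adhesion genes, 3 were higher (Cd44 at 2.85-fold, Aqp1 at 2.55-fold and Itga5 at 2.47-fold) and 2 were lower, among them Itgbl1 at 0.43. On the Inmt, Gdf10 and C7 side Itgbl1 was at 0.51. Of 88 ribosomal protein genes 26 were higher and 0 lower (median 0.64).

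Since the Comp and Fmod side was smaller at 3 DPI, the ratios were also read within the Inmt, Gdf10 and C7 side alone. All 24 genes chosen by their ratio were past 2-fold in the same direction there. They were chosen over all cells, and this side held 111 of those 131 cells at 3 DPI and 116 of 186 uninjured. This is thus a description and no independent check. Cthrc1 was then 61.9-fold higher, H19 25-fold and Postn 10.1-fold, against 20.8, 9.92 and 4.16 over all cells. Cthrc1 had only 17 UMIs over all uninjured cells, so its ratio on this side rests on few transcripts. The side was not matched between the libraries, since it held every cell with Gdf10 alone, 45 at 3 DPI and 7 uninjured. When the rule was applied to cells thinned to 1000 UMIs, the ratios were smaller, at 8.62 for Cthrc1, 5.37 for H19 and 2.71 for Fbn2. Of the 90 listed genes past 2-fold over all cells, 18 were within 2-fold on this side alone. Ogn (0.33), Pcolce2 (0.20) and Serpinf1 (0.44) were lower on this side as over all cells.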

How the data were processed

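Single-cell transcriptomes were made by Drop-seq from sciatic nerves of wild-type CD1 mice. The authors deposited 1 matrix per library of whole-number counts (UMIs per gene and barcode), not normalized. Per the submitters' processing notes these came from the Drop-seq Alignment Cookbook 1.2 and mm10, and the counting settings were not stated in the labels or methods. The adult libraries held 8123103 UMIs in 2500 barcodes (3 DPI) and 4513814 UMIs in 2000 barcodes (uninjured), all read with Python 3.11.15.

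Counts were summed over the cells of a population and divided by their total UMIs to give CPM (per 1000000 UMIs). Intervals (95%) were exact Poisson for CPM, exact Clopper-Pearson for shares and exact conditional for ratios (scipy 1.17.1), and cover counting error only. A group at 0 was set to a floor of 3 UMIs, summed over the group, for a bound. A gene was past the fold at a ratio of at least 2 or at most 0.5. No test was run, since each condition had 1 library. Endothelial-marker cells had at least 3 UMIs of Pecam1, Plvap and Esam and none of Sox10 and Ptprc. Immune-marker cells had Ptprc and at least 2 UMIs of Aif1, Cd52, Trbc2 and Ptprcap, and none of Sox10 and Pecam1. Endoneurial-marker cells passed the mesenchymal gate with at least 3 UMIs of Etv1, Wif1, Sox9, Osr2 and Meox1, more than of either epineurial group. Doublets were scored with scrublet (scanpy 1.11.5) and kept. The calculations were tested on simulated data.

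Genes named were the 12 with the largest ratio in each direction between 3 DPI and uninjured, the 10 in each direction against another population and the 8 in each direction of the split, each in at least 10% of cells of the higher group. Further genes came from each list by abundance and ratio, and a few members within 2-fold were added after their values were seen. Rule, gate, mitochondrial, hemoglobin and ribosomal genes were not named by ratio, and a few further genes are not reported here. The members and lists were chosen with earlier results of these data known.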

Additional observations from a re-analysis of the deposited data

Results flagged for a closer look

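Several listed genes lay past 2-fold in one direction in Comp Gdf10 cells and past 2-fold in the other direction in another population, and the difference between the populations was not tested. Values are ratios of 3 DPI over uninjured with 95% counting intervals, and with 1 library per condition they have no replicate check. Against Pi16 Dpp4 cells, Tpm2 was at 0.354 (0.237 to 0.520) in Comp Gdf10 cells and 4.79 (2.37 to 11.3) in the other cells. A single cell held 30.5% of the uninjured Tpm2 transcripts of the Comp Gdf10 cells. Thbs4 was at 0.463 and 2.32, but its ratio in Comp Gdf10 cells was 0.646 without the highest cell of each library and 1.17 on the Inmt, Gdf10 and C7 side.

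Against endoneurial-marker cells, Tpm2 was at 0.354 and 3.77. The chemokine gene Cxcl12 was at 2.04 (1.73 to 2.41) in Comp Gdf10 cells and 0.452 (0.386 to 0.530) in endoneurial-marker cells, and the imprinted gene Mest at 2.25 (1.77 to 2.88) and 0.439 (0.336 to 0.575). The activin inhibitor gene Fst was at 0.349 and 2.07, Hspb1 at 0.172 and 2.11, and the glucose transporter gene Slc2a1 at 0.270 and 2.72. Sfrp5 was at 0.339 and 2.86, with 74.7% of its 3 DPI transcripts in 1 Comp Gdf10 cell and a ratio of 1.13 on the Inmt, Gdf10 and C7 side. Angpt1 was at 0.423 in Comp Gdf10 cells, whereas in endoneurial-marker cells it had 0 UMIs in the uninjured nerve and was at least 10.01-fold higher at 3 DPI.

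In the neonatal replicate 1 library, which the comparisons above did not use, 12 of 1327 gated cells met the rule (0.904%, 0.468 to 1.57). In replicate 2 they were 3 of 2950 (0.102%, 0.021 to 0.297). Of the 12 cells, 8 had Gdf10 and 4 had Fmod, and Comp, Inmt and C7 had 0 UMIs in them.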

How the results depend on the processing

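No paired analysis was possible because each adult condition had 1 library, and for the same reason no library could be left out. The share of gated cells that were Comp Gdf10 cells was lower at 3 DPI than in the uninjured nerve under all 9 gates. At 3 DPI it was 13.1% with at least 2 rule transcripts, 6.39% with at least 5, 7.71% with 3 times as many as of the Pi16 group, and 6.34% after thinning to 1000 UMIs. In the uninjured nerve it was 14.3% with at least 5 rule transcripts and 13.6% with no limit on Sox10, Pecam1 and Ptprc. Of the genes past 2-fold between 3 DPI and uninjured (468 higher, 185 lower), the counts became 705 and 320 with no limit on those 3 genes, 3030 and 2101 with no minimum of UMIs, and 111 and 77 with at least 100 UMIs. The higher count was 203 after thinning, and the lower count 301 when the median gene was set to 1. In cells with at least 2 rule genes, an alternative chosen after seeing the data, the higher count was 272. The cause of these shifts was not tested, except that a different minimum changes how many genes are compared. Of 480 ratios of named genes under the alternatives, 404 moved by less than their counting interval, 76 moved by more, and no named gene past 2-fold changed direction. Gdf10 (1.09) and Col1a2 (1.03), both within 2-fold, went below 1 under some alternatives, with lowest ratios of 0.78 and 0.93. Against Pi16 Dpp4 and endoneurial-marker cells, the counts stayed within 1.5 times under the alternatives run. Of 90 listed genes past 2-fold, 13 were within it with the median gene set to 1, 21 with cells weighted equally and 7 without the highest cell. Depth limits genes under about 30 UMIs, which were not compared.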
